A study of Arabidopsis thaliana with 12 samples.

Results

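The ids AT2G07660 to AT2G07840 name the stretch of Arabidopsis thaliana chromosome 2 in which a copy of the mitochondrial genome was inserted beside the centromere. The deposited table held 152 ids of this range among 69871 ids, and it held 162 mitochondrial ids (ATMG). Members were taken by id, with no filter on measured values, though earlier results of these data were known. The table gave cytosine methylation in 6 groups of 2 libraries each, and each group was listed only as the sum of its libraries. The libraries came from stem cell nuclei sorted from inflorescence apices at day 28. The groups were ddm1 heat, ddm1 control, poliv heat, poliv control, wt heat and wt control. The ddm1 plants carried the ddm1-10 allele of DDM1, a chromatin remodeller needed for methylation of heterochromatin. The poliv plants carried the nrpda-3 allele of the largest RNA polymerase IV subunit, which starts RNA-directed DNA methylation. The wt plants were Col-0, and all 3 genotypes carried the stem cell reporter pCLV3::H2BmCherry. Heat plants had been exposed to 37 °C at day 7 and had grown for 21 days since, and control plants had not been heated. The nuclei were chosen by a reporter driven by the CLV3 promoter, so other cell types were not sampled.

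Plant nuclear genomes take up mitochondrial DNA, and such copies are called nuclear mitochondrial insertions. A nuclear copy that lies in pericentromeric heterochromatin is methylated in CG by MET1, in CHG by CMT3 and in CHH by CMT2 or the RNA-directed pathway, where H stands for A, T or C. Mitochondrial DNA in the organelle is not kept methylated by these enzymes. A short read from a recent insertion can fit the nuclear and the organelle sequence alike, so the level given to either depends on where the read was placed. The chromosome 2 insertion is known from cytology to be longer in the living plant than in the assembled sequence.

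In the TAIR10.1 assembly, alignment of chromosome 2 with the mitochondrial record of the same assembly gave 17 matching blocks between chr2:3239038-3509765, a stretch of 271 kb. Of this stretch 99.6% was aligned, and 99.92% of the aligned bases were identical, with 204 positions that differed. The stretch held copies of 72.2% of the 367808 bases of the mitochondrial record. Mitochondrial genes with no copy there included cox1 and cox2 (cytochrome c oxidase subunits), nad9 (complex I), atp4 (ATP synthase) and the ribosomal RNA genes rrn18 and rrn26. Of the 152 ids, 131 lay inside the stretch and are called insertion ids here. The other 21 lay elsewhere on chromosome 2, with 2 to the left, 17 to the right and 2 far away on the right arm. Most of these were annotated as pseudogenes. A further 54 ids of the table lay inside the stretch but had numbers outside the range, and they were not members.

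Windows of 75 bases, the nominal length left of a read after trimming, are printed from the forward strand to show how alike the copies are. Capitals mark the differing base in the first 2 pairs. AT2G07673 (chr2:3266680-3266754, mitochondrial record 284716-284790) stands for ids with few calls, and AT2G07774 (chr2:3304127-3304201, mitochondrial record 322250-322324) for ids with many.

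AT2G07673, chromosome 2: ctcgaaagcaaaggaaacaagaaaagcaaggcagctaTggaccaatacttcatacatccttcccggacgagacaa
AT2G07673, mitochondrial: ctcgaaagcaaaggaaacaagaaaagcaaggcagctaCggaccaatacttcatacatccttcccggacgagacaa
AT2G07774, chromosome 2: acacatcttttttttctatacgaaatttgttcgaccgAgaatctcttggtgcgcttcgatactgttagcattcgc
AT2G07774, mitochondrial: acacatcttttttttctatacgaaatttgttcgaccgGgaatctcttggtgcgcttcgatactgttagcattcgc

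Both differences exchange C with T or G with A, the exchange that bisulfite conversion also makes on a single strand. In the next windows the copies are identical and capitals mark CG sites. AT2G07677 (chr2:3279438-3279512), a transcribed pseudogene, had no differing base in its whole length or within reach of a read, and it had many calls. AT2G07687 (chr2:3312116-3312190) holds cox3, the gene of cytochrome c oxidase subunit III. It also had no differing base in its length, but 0.601% of it lay within reach of one outside. No call was listed for it in CG.

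AT2G07677, both copies: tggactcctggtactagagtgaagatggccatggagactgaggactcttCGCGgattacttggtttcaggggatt
AT2G07687, both copies: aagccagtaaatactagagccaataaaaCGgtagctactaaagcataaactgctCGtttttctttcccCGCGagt

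Differences are counted against the mitochondrial record of TAIR10.1, which is of Col-0. The mitochondrial record that the reads were aligned to was not stated in the sources at hand. Among 67 insertion ids with a differing base within reach of a read, 40 had CG values in all 6 groups, and among 64 ids with none, 12 had.

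Only part of the members could be measured. In CG, 52 of the 131 insertion ids had a value in every group, 11 had values in some groups and 68 had none. The 11 with values in some groups were AT2G07661, AT2G07666, AT2G07672, AT2G07716, AT2G07724, AT2G07734, AT2G07773, AT2G07783, AT2G07785, AT2G07786 and AT2G07813. In CHG 57 insertion ids and in CHH 68 had values in every group. Of the 68 without a CG value, 12 held a named mitochondrial gene. These were AT2G07671 (atp9), AT2G07741 (atp6) and AT2G07707 (atp8) of ATP synthase, AT2G07687 (cox3), AT2G07751 (nad3), AT2G07689 (part of nad2) and AT2G07731 (nad6) of complex I, AT2G07675 (rps12), AT2G07696 (rps7) and AT2G07726 (rps14) of the ribosome, AT2G07771 (ccmC) of cytochrome c maturation and AT2G07683 (a tRNA gene). Another 21 were annotated as tRNA genes, namely AT2G07743, AT2G07745, AT2G07746, AT2G07748, AT2G07752, AT2G07753, AT2G07754, AT2G07755, AT2G07756, AT2G07757, AT2G07758, AT2G07759, AT2G07761, AT2G07762, AT2G07763, AT2G07764, AT2G07765, AT2G07766, AT2G07792, AT2G07793 and AT2G07794. The other 35 were AT2G07663, AT2G07670, AT2G07682, AT2G07684, AT2G07685, AT2G07686, AT2G07691, AT2G07692, AT2G07693, AT2G07694, AT2G07697, AT2G07701, AT2G07702, AT2G07703, AT2G07704, AT2G07705, AT2G07708, AT2G07713, AT2G07719, AT2G07729, AT2G07735, AT2G07736, AT2G07737, AT2G07742, AT2G07767, AT2G07769, AT2G07772, AT2G07776, AT2G07778, AT2G07784, AT2G07807, AT2G07809, AT2G07820, AT2G07825 and AT2G07826. Outside the insertion, 7 ids had values in every group and 13 had none, namely AT2G07660, AT2G07700, AT2G07710, AT2G07720, AT2G07730, AT2G07740, AT2G07744, AT2G07770, AT2G07780, AT2G07788, AT2G07789, AT2G07790 and AT2G07791. AT2G07840 had values in some groups. Of the 162 mitochondrial ids, 68 had CG values in every group and 93 had none.

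The 97 chloroplast ids with CG values measured the share of cytosines read as methylated in DNA that is commonly taken as unmethylated, called the unconverted share here. That share was 0.739% in ddm1 heat and 0.38% in ddm1 control. It was 0.616% in poliv heat, 0.348% in poliv control, 0.67% in wt heat and 0.328% in wt control. Heat libraries were thus above control libraries by 1.77 to 2.04 times in each genotype. CG calls over all ids numbered between 30597398 in wt control and 48850347 in ddm1 control. All levels below are methylated calls as a percent of all calls, and intervals are 95% Wilson intervals, which cover counting error only. Calls from the same read are not independent molecules. Each test compared pooled libraries and had no error between plants behind it.

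The insertion ids were methylated in wt and, summed, under 1% in ddm1. Summed over the 52 ids, the CG level was 0.714% (interval 0.646 to 0.789%) in ddm1 control, against 18.7% (18.3 to 19.1%) in wt control. In heat plants it was 0.938% (0.861 to 1.02%) in ddm1, against 12.5% (12.2 to 12.8%) in wt. In poliv it was 10.7% (10.5 to 11%) in heat and 15.9% (15.6 to 16.3%) in control plants. These sums weigh ids by their calls, and the mean over ids was 23% in poliv heat and 27.8% in poliv control, and 24.7% in wt heat and 29.8% in wt control. The mitochondrial ids had the same order of groups at lower levels. They reached 0.63% in ddm1 heat and 0.421% in ddm1 control, 3.24% in poliv heat and 5.79% in poliv control, and 4.19% in wt heat and 6.84% in wt control. Members outside the insertion had 11.8% in ddm1 heat and 12.3% in ddm1 control, 66.5% in both poliv groups, and 66.4% in wt heat and 63.7% in wt control. The 22 valued chromosome 2 ids beside the insertion, of 40 taken on each side, had 14.2% in ddm1 control against 48.3% in wt control.

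**Figure D1:**
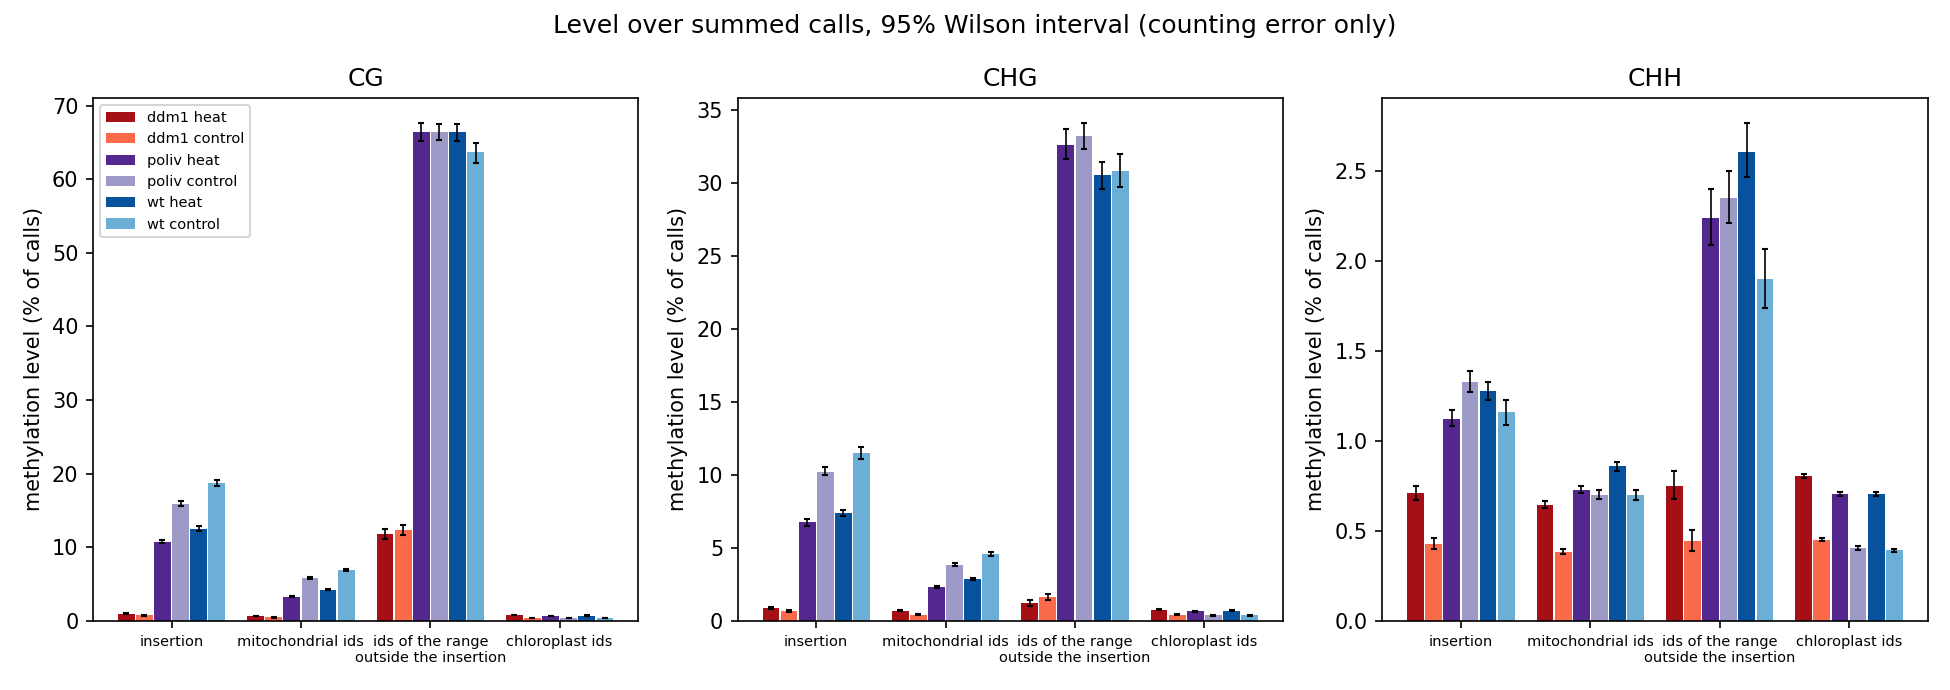
Methylation level in percent of calls for the insertion ids, the mitochondrial ids, the members outside the insertion and the chloroplast ids, in CG, CHG and CHH; bars are the 6 groups over summed calls and error bars are 95% Wilson intervals. In CG the insertion stood at 0.714% in ddm1 control and 18.7% in wt control, and the chloroplast ids stayed under 1% in every group.

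In CHG the insertion ids had 0.866% in ddm1 heat and 0.66% in ddm1 control, against 7.35% in wt heat and 11.5% in wt control. In poliv they had 6.73% in heat and 10.2% in control plants. The mitochondrial ids had CHG levels of 0.683% in ddm1 heat and 0.408% in ddm1 control, 2.27% in poliv heat and 3.83% in poliv control, and 2.84% in wt heat and 4.56% in wt control. CHH was low everywhere. It stood at 0.708% in ddm1 heat and 0.427% in ddm1 control, 1.12% in poliv heat and 1.33% in poliv control, and 1.28% in wt heat and 1.16% in wt control over the insertion ids. The chloroplast CHH share was 0.805% in ddm1 heat, 0.45% in ddm1 control, 0.703% in wt heat and 0.39% in wt control. The ddm1 values of the insertion in CHH were therefore at or under the unconverted share, and those of wt and poliv were above it.

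The insertion ids fell into separate sets in wt control, with no id between 44.4% and 82%. The split was seen in the values, so it is a description and carries no test. There were 8 ids at or above 82%, and 44 ids at or below 44.4%. The 8 were AT2G07673, AT2G07699, AT2G07722, AT2G07749, AT2G07768, AT2G07777, AT2G07812 and AT2G07815. AT2G07768 holds ccmFN2, a gene of cytochrome c maturation, and AT2G07699 is a pseudogene that holds atp6. AT2G07749 is annotated as a mitovirus RNA-dependent RNA polymerase, the replicase of viruses that live in mitochondria, and AT2G07777 as a mitochondrial ATP synthase 9. The 8 ids had few calls, between 0.123 and 1.88 for each CG cytosine of their sequence in wt control, where nuclear protein-coding genes had a median of 7.34. The 44 ids had between 0.355 and 21.3 calls for each CG cytosine. Over the 52 ids, level and depth went in opposite directions (Spearman rho = -0.51 over ids that share libraries), given as a description.

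**Figure D2:**
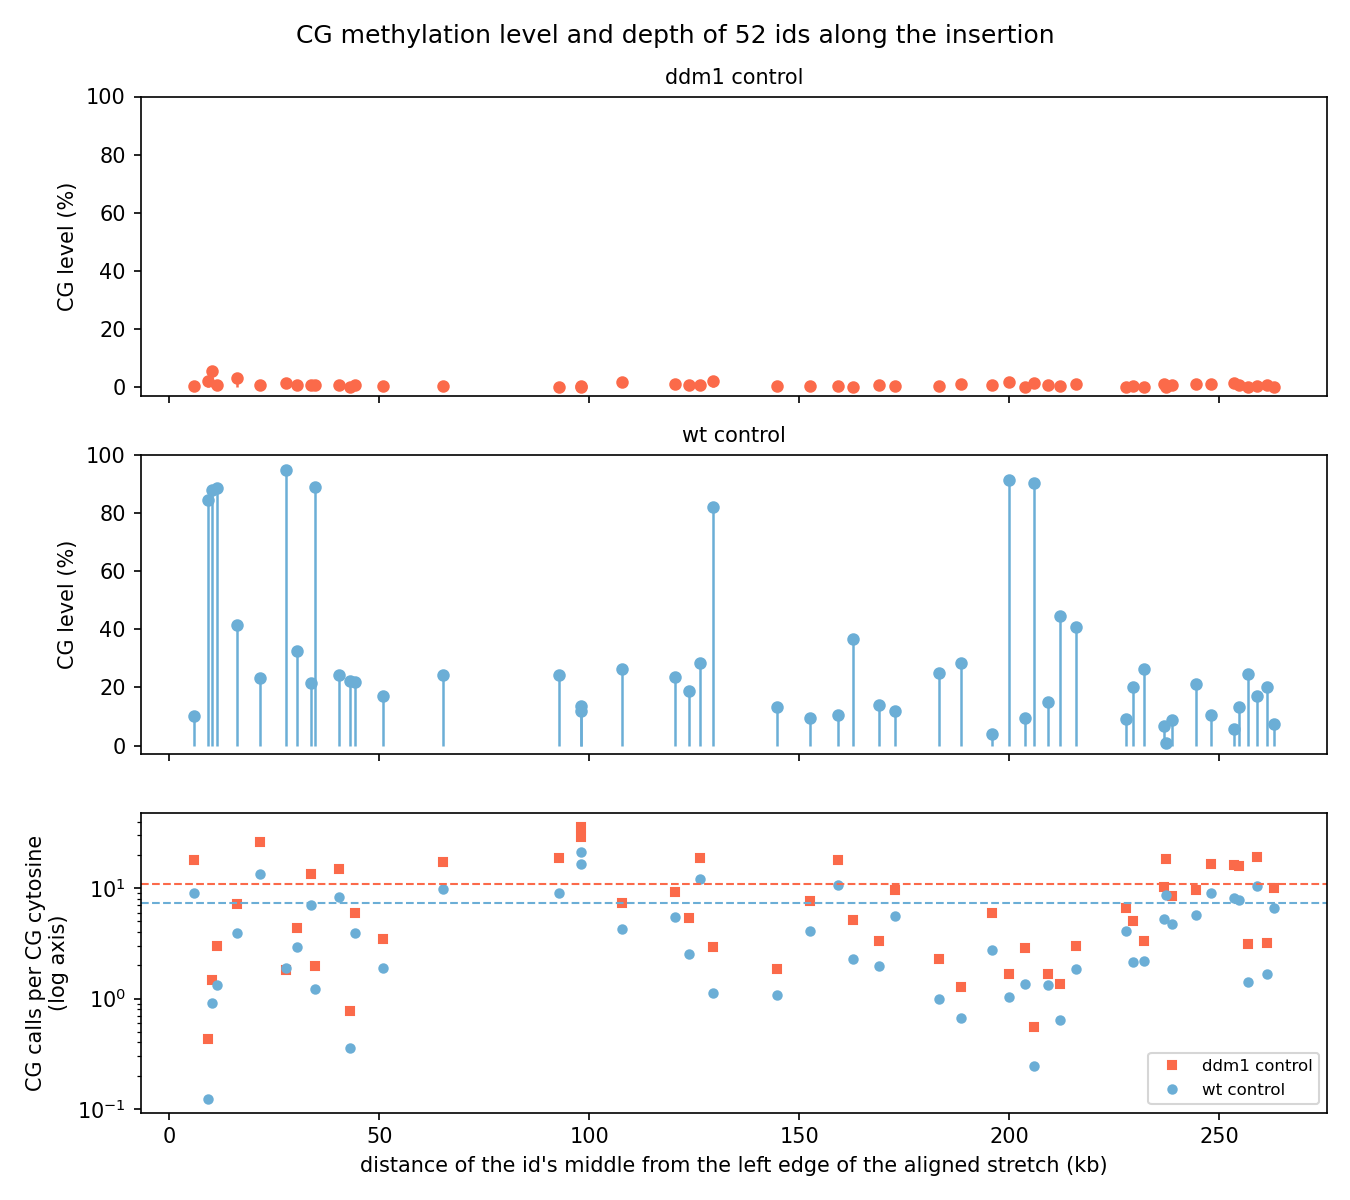
CG level in percent of the 52 valued insertion ids in ddm1 control (top) and wt control (middle), and CG calls per CG cytosine in both on a log axis (bottom), by distance in kb from the left edge of the insertion; dashed lines are the medians of nuclear protein-coding genes. The ids above 80% in wt control lay at several places along the insertion, and none of the 52 ids was over 5.66% in ddm1 control.

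AT2G07673 had the highest CG level of the insertion in wt control. It had 1.3% of 77 calls in ddm1 heat and 1.32% of 76 calls in ddm1 control, 93.5% of 92 calls in poliv heat and 91.4% of 93 calls in poliv control, and 91.2% of 114 calls in wt heat and 94.9% of 79 calls in wt control (interval in wt control 87.7 to 98%). Only the ddm1 groups were low. In AT2G07768 the level was 0.68% in ddm1 heat and 0.84% in ddm1 control, 96% in poliv heat and 94% in poliv control, and 90% in wt heat and 89% in wt control. AT2G07815, which overlaps ccmFC and a tRNA gene, had 0.813% in ddm1 heat and 1.45% in ddm1 control, against 95.8% in wt heat and 90.2% in wt control. In CHG, AT2G07673 had 0.82% in ddm1 control against 51.4% in wt control, and AT2G07768 had no methylated call among 106 (up to 2.83%) against 57.4%.

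Ids with many calls had lower levels. The 14 ids with more calls per CG cytosine than the median nuclear gene spanned 0.971% to 28.4% in wt control, with a median of 13.5%, and the 3 described next were at the upper end of them. AT2G07667 (chr2:3364296-3366661), an open reading frame with no differing base, had 0.554% of 2709 calls in ddm1 heat and 0.652% of 2608 calls in ddm1 control. It had 15.4% of 2708 calls in poliv heat and 23.4% of 2465 calls in poliv control, and 16.7% of 2851 calls in wt heat and 28.4% of 1679 calls in wt control. The heat groups of poliv and wt were lower than their controls, and both ddm1 groups were under 1%. AT2G07774, an open reading frame that overlaps a tRNA gene and one of the ids printed above, had 0.29% in ddm1 heat and 0.502% in ddm1 control, 9.62% in poliv heat and 20% in poliv control, and 10.3% in wt heat and 24.1% in wt control. AT2G07677, with identical copies, had 0.881% in ddm1 heat and 0.672% in ddm1 control, 9.67% in poliv heat and 18.2% in poliv control, and 13.5% in wt heat and 24.2% in wt control.

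Ordered by the mitochondrial genes they hold, the insertion ids had ranges that overlapped between classes. Complex I genes (NADH dehydrogenase) had 9 of 14 ids valued, with a median CG level of 0.382% in ddm1 control against 13.5% in wt control (9.6 to 36.7%). Among them AT2G07712, which holds matR and nad1 sequence, had 0.0814% in ddm1 control against 36.7% in wt control, and AT2G07709 (nad7) had 0.536% against 9.6%. The cob gene of complex III, AT2G07727, had 0.355% in ddm1 control against 44.4% in wt control. Cytochrome c maturation genes had 4 of 8 ids valued, and they spanned 9.57% in AT2G07723 (ccmFC) to 90.2% in AT2G07815 in wt control. ATP synthase had 2 of 5 valued, AT2G07698 (atp1) with 0.69% in ddm1 control against 18.7% in wt control and AT2G07699 with 2.3% against 82%. Ribosomal proteins had 2 of 6 valued, AT2G07715 (rpl2) with 0.493% against 11.8% and AT2G07725 (rpl5) with 0.905% against 14.9%. The lowest levels in wt control were in AT2G07830 (0.971%), AT2G07721 (4.02%), AT2G07738 (5.58%) and AT2G07827 (6.67%), which are annotated only as unknown proteins. AT2G07805, a long noncoding RNA far from the insertion, had no methylated call among 147 in wt heat or among 85 in wt control, which allows up to 2.04% and 3.53%.

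In ddm1, CG methylation was lower than in wt over the insertion. By Fisher's exact test with Benjamini-Hochberg adjustment over all 44873 features (exact adjusted p below), 51 of 52 insertion ids were lower in ddm1 control than in wt control and 0 were higher, where 43.8% of all features were lower and 1.62% higher. The exception was AT2G07830, with no methylated call among 222 in ddm1 control, which allows a level of up to 1.35%, and 0.971% in wt control (exact adjusted p = 0.924). The median difference was -20.9 percentage points over the insertion ids and -1.75 over all features. Among the mitochondrial ids, 54 of 68 were lower and 0 higher, with a median difference of -5.84 points. With the test statistic scaled to the spread over all features, 34 insertion ids and 29 mitochondrial ids were lower in ddm1 control. The share of all features that passed the scaled test is not given here or below, so scaled counts have no background to be read against. AT2G07673 differed by -93.6 points (exact adjusted p = 6.02e-37) and AT2G07667 had 0.652% in ddm1 control against 28.4% in wt control (exact adjusted p = 1.14e-185). In heat plants, 49 of 52 insertion ids and 49 of 68 mitochondrial ids were lower in ddm1 than in wt and 0 were higher, where 46.8% of all features were lower and 2.14% higher. With the test scaled to the spread over all features, these counts were 31 and 19. Outside the insertion 6 of 7 valued members were lower in ddm1 in control and in heat plants. They were AT2G07680 (ABCC13, an ABC transporter), AT2G07690 (MCM5, a subunit of the replicative helicase), AT2G07750, AT2G07760, AT2G07800 and AT2G07810. AT2G07680 had 4.29% in ddm1 control against 65.8% in wt control, and AT2G07690 had 22.6% against 29.5% (exact adjusted p = 5.95e-05).

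Differences between poliv and wt were smaller. In control plants 12 of 52 insertion ids were lower in poliv and 1 was higher, where 3.31% of all features were lower and 4.90% higher. The median difference over the insertion ids was -2.03 points, and 0.0244 over all features. AT2G07779 fell most, with 24.3% in poliv control against 41.4% in wt control (exact adjusted p = 1.14e-07). AT2G07732, which carries a fragment annotated as the large Rubisco subunit, was the higher one, with 39.7% in poliv control against 20.1% in wt control (exact adjusted p = 0.00316), and no insertion id was higher with the scaled test. Of the 68 mitochondrial ids, 8 were lower in poliv control and 2, ATMG00130 and ATMG01110, were higher. In heat plants 9 insertion ids and 16 mitochondrial ids were lower in poliv and 0 were higher, where 5.59% of all features were lower and 5.65% higher. With the test statistic scaled to the spread over all features, lower ids in poliv control numbered 1 in the insertion and 2 among mitochondrial ids, and in poliv heat 1 and 5.

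Heat plants had lower CG levels than control plants in wt and in poliv, 21 days after the treatment. In wt, 20 of 52 insertion ids were lower after heat and 0 higher, where 0.267% of all features were lower and 1.61% higher. In poliv, 22 of 52 were lower and 0 higher, where 0.789% of all features were lower and 1.25% higher. Of the 20 ids in wt and the 22 in poliv, 14 were shared, which is 70% of the wt list and 63.6% of the poliv list. The overlap of such lists over all features is not given, so these shares cannot be called particular to the insertion. The median difference was -4.93 points in wt and -4.96 in poliv over the insertion ids, against 0.387 and 0.242 over all features. In ddm1, 0 of 52 insertion ids were lower or higher by this test, where 2.45% of all features were lower and 1.78% higher. At an unadjusted p under 0.05 the test gave 0 lower and 5 higher insertion ids in ddm1. The share of all features at that unadjusted threshold is not given, so these counts have no background to be read against. In CG no such fall was seen beside the insertion. The neighbouring ids had 49.7% in poliv heat against 49% in poliv control, and 49.6% in wt heat against 48.3% in wt control. In CHG these neighbours were lower after heat in wt, with 12.1% in wt heat against 14.8% in wt control. Their CHG level in poliv was 13.3% in heat against 13.4% in control plants. With the CG test scaled to the spread over all features, 9 insertion ids were lower after heat in wt and 9 in poliv.

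All 20 insertion ids that were lower after heat in wt, and all 22 in poliv, were among the 44 ids at or below 44.4%. None of the 8 ids at or above 82% passed the heat test in either genotype, and their summed level was 85.5% in poliv heat against 85.4% in poliv control, and 87.8% in wt heat against 88.5% in wt control. Each of the 8 had 227 calls or fewer in wt control, so a change of a few points was not detectable in any of them. Over the 44 ids the level was 9.58% in poliv heat against 14.6% in poliv control, and 11.2% in wt heat against 17.2% in wt control. AT2G07775, which overlaps a tRNA gene, had 6.01% in wt heat against 21.3% in wt control (exact adjusted p = 1.27e-09). AT2G07664, a pseudogene of ATMG01040, had 8.19% against 23.4% (exact adjusted p = 5.6e-05) and did not pass the scaled test. AT2G07739, annotated as a Ycf1 protein, had the largest difference in wt, with 7.93% in wt heat against 24.6% in wt control, but its few calls left it at exact adjusted p = 0.081. In the other direction AT2G07732 had 33.1% in wt heat against 20.1% in wt control (exact adjusted p = 0.164).

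**Figure D3:**
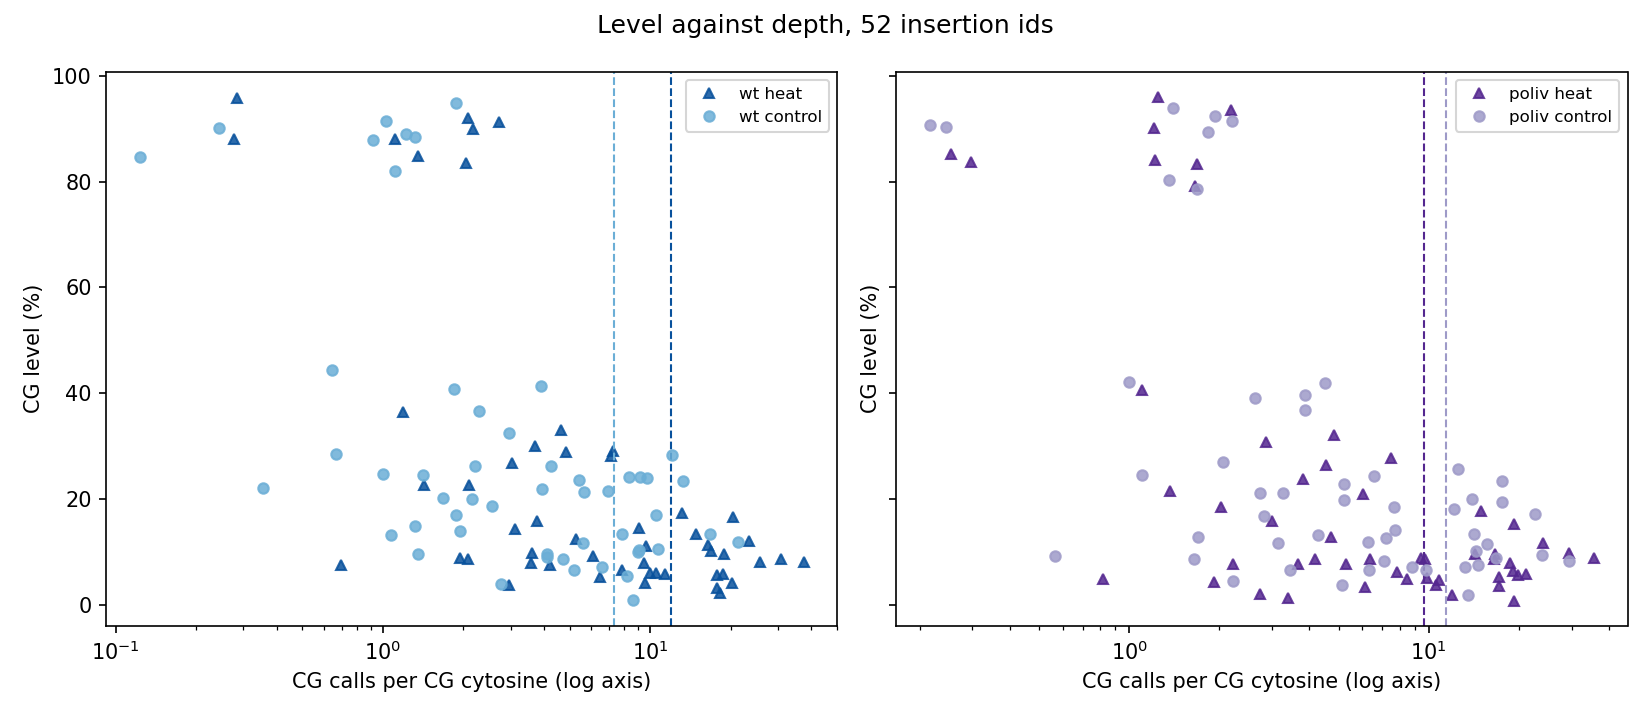
CG level in percent of the 52 insertion ids against CG calls per CG cytosine on a log axis, in wt (left) and poliv (right), with heat as triangles and control as circles; dashed lines are the medians of nuclear protein-coding genes. The 8 ids above 78% had few calls in both states, and summed over the other 44 ids the level was 11.2% in wt heat against 17.2% in wt control.

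In poliv the largest falls after heat were in AT2G07674 (26.5% in poliv heat against 41.9% in poliv control, exact adjusted p = 0.000242), AT2G07712 (23.9% against 36.9%, exact adjusted p = 1.78e-06) and AT2G07688 (8.02% against 19.5%, exact adjusted p = 0.000355). AT2G07777 had 83.4% in poliv heat against 78.6% in poliv control (exact adjusted p = 0.699) and AT2G07779 had 27.7% against 24.3% (exact adjusted p = 0.622). Outside the insertion AT2G07680 was higher after heat in poliv, with 69.9% against 64.9% (exact adjusted p = 0.0335). In ddm1 the same gene was lower after heat, with 2.46% against 4.29% (exact adjusted p = 0.00814), and AT2G07760 was higher, with 16.9% against 12.7% (exact adjusted p = 0.0452).

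The heat effect itself was compared between genotypes as a difference of differences. Against wt, 21 of 52 insertion ids had a different heat effect in ddm1, all 21 in the direction of a smaller fall or no fall, where 3.34% of all features passed. Of the 68 mitochondrial ids 25 passed, all in the same direction. Without heat the insertion level was 0.714% in ddm1 control against 18.7% in wt control. From 0.714% a fall as large as in wt was not possible, so this test cannot tell a different heat effect in ddm1 from this floor. The part of the starting level in the difference was not tested. In poliv 3 insertion ids passed, AT2G07732, AT2G07779 and AT2G07811, and 2 mitochondrial ids, ATMG00060 and ATMG01370, where 1.62% of all features passed. With the scaled test 13 insertion ids and 13 mitochondrial ids passed for ddm1, and 0 and 0 for poliv.

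Numbers of calls also differed between the groups. Per 1000000 CG calls on nuclear protein-coding genes, the insertion ids had 1571 calls in ddm1 heat and 1439 in ddm1 control, 1633 in poliv heat and 1171 in poliv control, and 1377 in wt heat and 1183 in wt control. The calls were thus 1.16 times as many after heat in wt, 1.39 times in poliv and 1.09 times in ddm1. For the mitochondrial ids the ratios of heat to control were 1.22 in wt, 1.46 in poliv and 1.09 in ddm1, and for the chloroplast ids 0.899, 1.1 and 1.05. Methylated calls on the insertion numbered 175 on the same scale in poliv heat and 187 in poliv control, and 172 in wt heat and 221 in wt control. They were 14.7 in ddm1 heat and 10.3 in ddm1 control. After heat the methylated calls were therefore 0.777 times as many in wt and 0.938 times in poliv, while all calls rose. For the 8 ids at or above 82%, all calls on that scale were 24.6 in poliv heat and 21.4 in poliv control, and 23.7 in wt heat and 25.4 in wt control. Organelle reads placed on the insertion and a change of the nuclear copy cannot be told apart from summed calls, and the part of the call numbers in the heat difference was not tested.

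**Figure D4:**
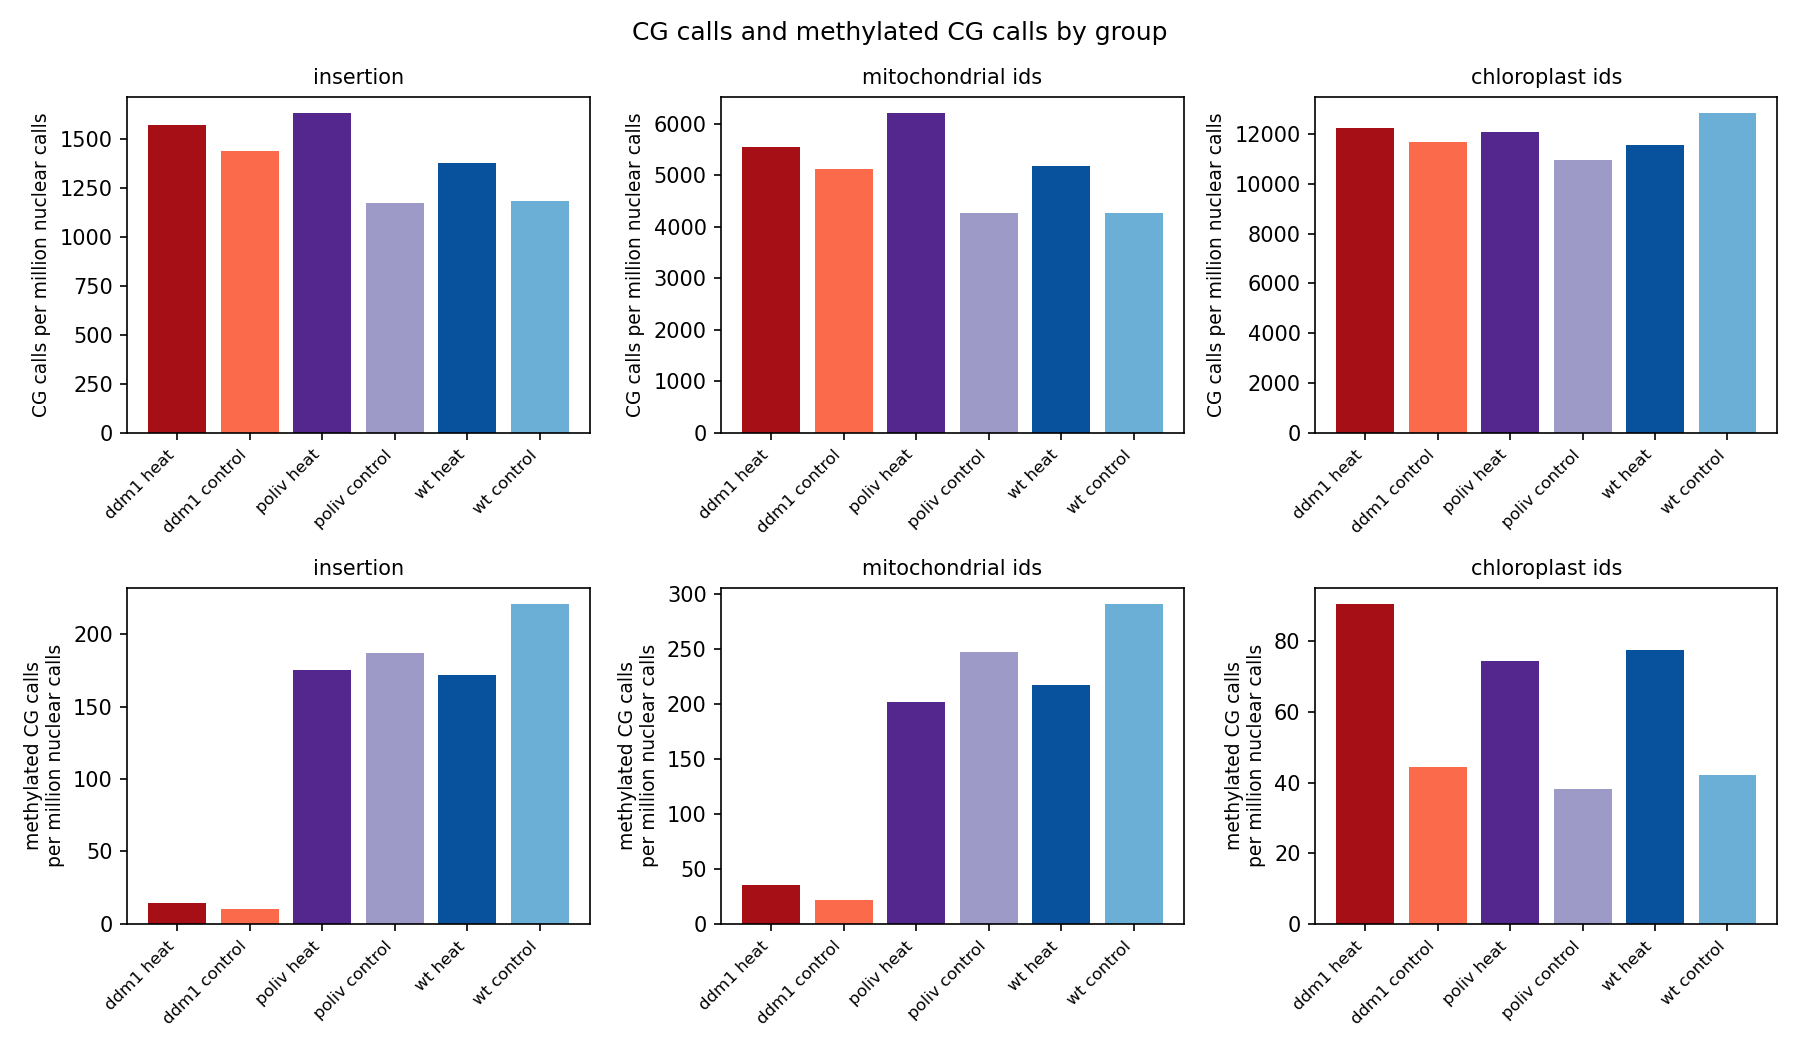
CG calls (top) and methylated CG calls (bottom) per 1000000 CG calls on nuclear protein-coding genes, for the insertion ids, the mitochondrial ids and the chloroplast ids in the 6 groups. Calls on the insertion were more in heat than in control in each genotype (1633 in poliv heat and 1171 in poliv control), and methylated calls were fewest in ddm1 (14.7 in heat and 10.3 in control).

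Calls on the insertion were also 1.22 times as many in ddm1 control as in wt control and 1.14 times in the heat plants. In poliv they were 0.989 times the wt number in control and 1.19 times in heat plants. On the 7 valued members outside the insertion the ratio of ddm1 to wt was 1.42 in control and 1.29 in heat plants. On the 22 valued chromosome 2 ids beside the insertion it was only 1.07 and 1.1, and on the mitochondrial ids 1.2 and 1.07. The members to the left and right of the insertion had no base aligned to the mitochondrial record. For the insertion ids, more nuclear calls and more organelle calls cannot be told apart here either.

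Whether methylation given to mitochondrial ids went with the chromosome 2 copy was looked at in pairs. The annotation of the chromosome 2 ids records a best match or parent among mitochondrial ids for 53 member ids, which name 52 mitochondrial ids. Both copies had CG values in 11 pairs, only the chromosome 2 id in 16, only the mitochondrial id in 4 and neither in 22. The chromosome 2 id was higher than its mitochondrial partner in 11 of 11 pairs in wt control, in poliv control and in poliv heat, and in 10 of 11 in wt heat. It was higher in 8 of 11 in ddm1 heat and in 9 of 11 in ddm1 control, where the median of the difference was 0.35 and 0.717 points. The median chromosome 2 level over the pairs was 0.84% in ddm1 control against 26.3% in wt control, and the median mitochondrial level was 0.412% against 10.5%. Over the 11 pairs the levels of the partners in wt control had Pearson r = 0.6 and Spearman rho = 0.791, given as a description since the pairs share libraries.

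The pair AT2G07673 and ATMG01030 had the highest levels on both sides in wt control. ATMG01030 had 0.901% of 222 calls in ddm1 heat and 0.386% of 259 calls in ddm1 control, 26.9% of 271 calls in poliv heat and 33.2% of 253 calls in poliv control, and 24.6% of 280 calls in wt heat and 40.6% of 138 calls in wt control. Its chromosome 2 partner stayed above 91% in wt and poliv. AT2G07749 and ATMG01110 had 2.17% and 0.418% in ddm1 control, and 84.6% and 6.02% in wt control. AT2G07812 and ATMG01100 had 5.66% and 0.412% in ddm1 control, and 87.9% and 10.8% in wt control. AT2G07777 and ATMG01090 had 0.784% and 1.25% in ddm1 control, and 88.5% and 13.9% in wt control. AT2G07768 and ATMG00960 had 0.84% and 0.462% in ddm1 control, and 89% and 13.6% in wt control. In these 5 pairs the chromosome 2 id was at 84.6% or more in wt control and its partner between 6.02% and 40.6%.

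The other 6 pairs had chromosome 2 levels between 11.8% and 26.3% in wt control. AT2G07695 and ATMG01280 had 1.89% and 0.412% in ddm1 control, and 26.3% and 10.5% in wt control. AT2G07798 and ATMG01220 had 0.974% and 0.257% in ddm1 control, and 23.7% and 2.87% in wt control. AT2G07676 had 0.806% in ddm1 control and ATMG00970 no methylated call among 257, which allows up to 1.17%. The pair had 21.5% and 11.3% in wt control. Partners were close in AT2G07808 and ATMG01330, with 0.222% and 2.42% in ddm1 control, and 12% and 7.84% in wt control. In 2 pairs the mitochondrial partner had 0.234% or less in wt control. AT2G07732 had 0.319% in ddm1 control against 20.1% in wt control, while ATMG00280 had no methylated call among 141 in ddm1 control, which allows a level of up to 2.13%, nor among 84 in wt control, which allows up to 3.57%. AT2G07715 (rpl2) had 0.493% against 11.8%, while ATMG00560 had 0.43% in ddm1 control against 0.234% in wt control.

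Mitochondrial ids without a recorded partner on chromosome 2 were methylated in wt and near the unconverted share in ddm1 as well. The 53 valued ids of this kind had 0.631% in ddm1 heat and 0.414% in ddm1 control, 3.17% in poliv heat and 5.67% in poliv control, and 4.06% in wt heat and 6.71% in wt control. Of these, 42 were lower in ddm1 control than in wt control, where 43.8% of all features were lower. The 15 valued ids with a recorded partner had 0.588% in ddm1 control against 9.9% in wt control, and 12 of them were lower. ATMG00020, with the most calls, had 0.667% of 26078 calls in ddm1 heat and 0.4% of 25735 calls in ddm1 control, 3.4% of 28209 calls in poliv heat and 5.65% of 22181 calls in poliv control, and 4.44% of 27833 calls in wt heat and 6.98% of 14823 calls in wt control. The record of a partner rests on protein matches, so an id without one may or may not have a copy in the insertion. Some mitochondrial genes, such as cox1 and rrn26, had no copy there. Mitochondrial ids were not placed on the mitochondrial record, so ids with and without a copy were not told apart.

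**Figure D5:**
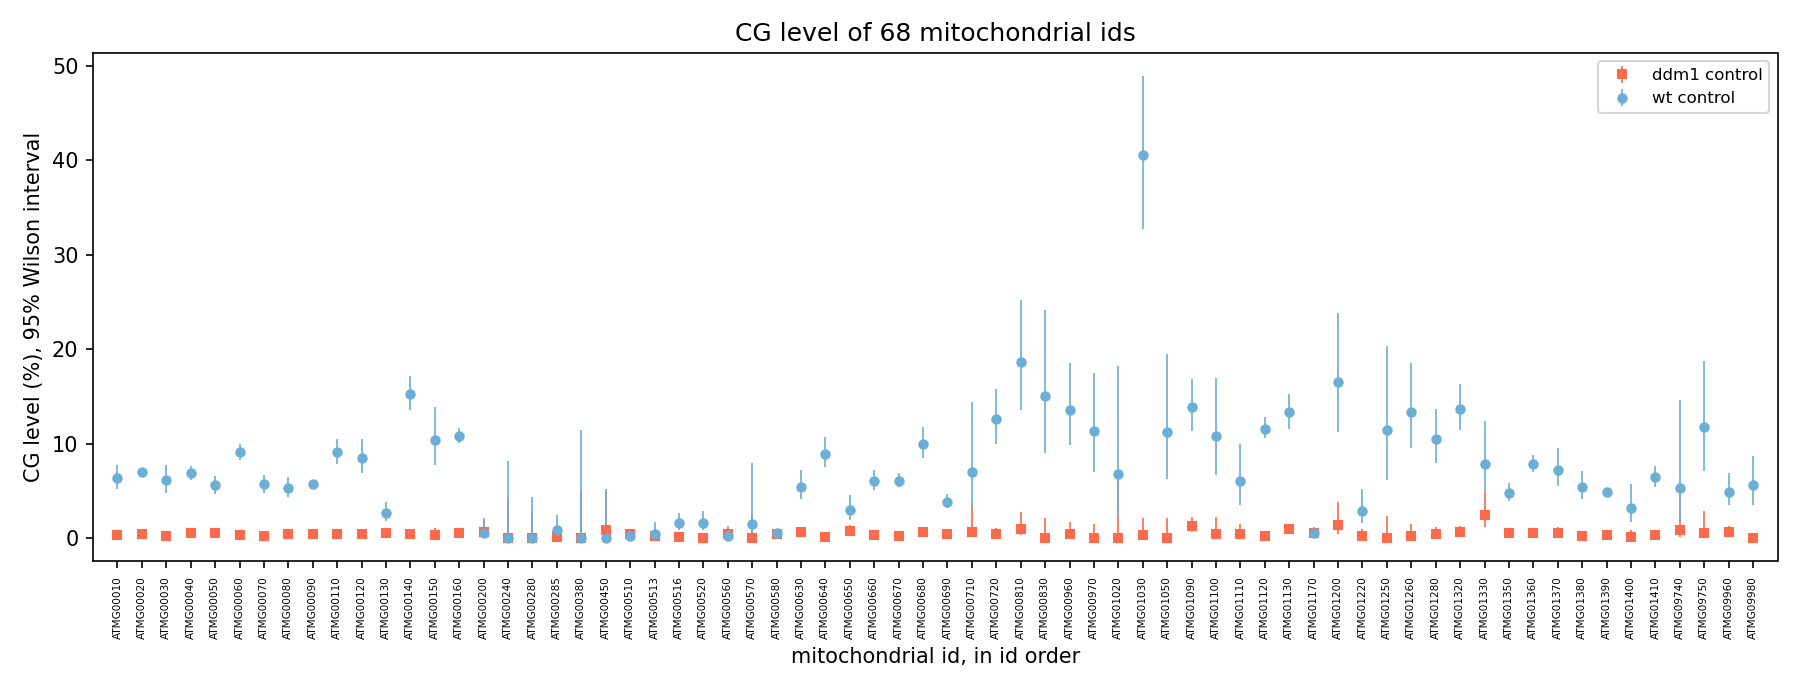
CG level in percent of the 68 valued mitochondrial ids in id order, ddm1 control as squares and wt control as circles, with 95% Wilson intervals. ATMG01030 stood highest at 40.6% in wt control, and the ids from ATMG00200 to ATMG00580 were all under 2% there.

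Mitochondrial ids also fell into sets in wt control, with no id between 1.61% and 2.65%. This split too was seen in the values and is not tested. The 14 ids under 2% were ATMG01170 and all 13 valued ids from ATMG00200 to ATMG00580. A recorded partner was known for 3 of the 14 ids and for 12 of the other 54. Copies of ids without a recorded partner were not sought by sequence, so these counts do not say which ids have a copy. The summed level of the 14 ids was 0.649% in ddm1 heat and 0.366% in ddm1 control, 0.597% in poliv heat and 0.418% in poliv control, and 0.776% in wt heat and 0.698% in wt control. The other 54 ids had 0.628% in ddm1 heat and 0.425% in ddm1 control, 3.44% in poliv heat and 6.18% in poliv control, and 4.45% in wt heat and 7.29% in wt control. In ddm1 the sets were thus at like levels. After ATMG01030, the highest ids in wt control were ATMG00810 with 18.7%, ATMG01200 with 16.5%, ATMG00140 with 15.3% and ATMG00830 with 15.1%.

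Mitochondrial ids were also lower after heat in wt and poliv. In wt 25 of 68 were lower after heat and 0 higher (0.267% and 1.61% of all features), and in poliv 28 were lower and 0 higher (0.789% and 1.25% of all features). Of these ids 18 were shared (72% of the wt list and 64.3% of the poliv list), and here too the overlap over all features is not given. The scaled test gave 9 lower ids in wt and 14 in poliv. In ddm1 0 were lower and 3 were higher, ATMG00020, ATMG00090 and ATMG01120, by 0.238 to 0.467 points (2.45% of all features were lower and 1.78% higher), while the chloroplast share was 0.359 points higher in ddm1 heat than in ddm1 control. With the chloroplast shares matched, 0 were higher and 1 was lower. At an unadjusted p under 0.05, 1 mitochondrial id was lower and 9 were higher in ddm1, again without a share of all features to compare. ATMG00810 fell in wt to 8.05% in wt heat, against 18.7% in wt control (exact adjusted p = 0.0399), and ATMG09750 to 1.91%, against 11.8% (exact adjusted p = 0.0359). Neither of them passed the scaled test. In poliv ATMG01090 had 3.09% in poliv heat against 12.6% in poliv control (exact adjusted p = 1.29e-11), ATMG01100 had 3.45% against 14.6% (exact adjusted p = 0.00243) and ATMG01110 had 6.81% against 16.1% (exact adjusted p = 0.00266). Their chromosome 2 partners AT2G07777, AT2G07812 and AT2G07749 had 83.4%, 84.1% and 85.2% in poliv heat, against 78.6%, 89.4% and 90.4% in poliv control. None of the partners passed the test. They had 289, 44 and 54 calls in poliv heat and 290, 66 and 52 in poliv control. A change of a few points was therefore not detectable in them.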

How the data were processed

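Bisulfite libraries (Pico Methyl-Seq) were made from sorted stem cell nuclei, 2 libraries in each of 6 groups. The submitters' processing notes name Trim Galore 0.6.2, Bismark 0.22.2, bedtools 2.27 and the TAIR10 build, and the methods name methylpy for cytosine calls. The table deposited by the authors held, for each id, group and context, the count of methylated calls, the count of all calls and their ratio, a fraction. The 36 count columns were used, and the 18 fraction columns were not, since they repeat the counts. Each column summed the libraries of a group, so no value per plant could be had. An id listed in a context had at least 21 calls in every group it was listed for. Ids of the range were read as members, and 2 lines naming no locus were left out.

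Each level is methylated calls over all calls, with a 95% Wilson interval. For each feature, methylated and unmethylated calls of both groups entered Fisher's exact test (two-sided), with Benjamini-Hochberg adjustment over the 44873 features that had CG values in all 6 groups and a threshold of 0.05. The difference of heat effects between genotypes was divided by its counting error (1 call added per class) and referred to a normal distribution, with the same adjustment. The limit for a count of 0 is 3 calls of the total. Calls were scaled per 1000000 calls on nuclear protein-coding genes. On simulated data with 200 of 44873 features lowered 5-fold, Fisher's test recovered 93.5% of them for ddm1 against wt in control plants. Over the comparisons it recovered between 82.5% (heat against control in ddm1) and 94%. The lowered features all had at least 50 calls in both groups and a minimum level, and the simulated calls had no spread between libraries. Smaller falls were not simulated, so these shares do not describe them.

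The insertion was found by BLAST 2.17.0 of chromosome 2 against the mitochondrial record, both of TAIR10.1 (RefSeq), keeping alignments of at least 2000 bases and 95% identity. Differing bases were sought within a read span of 75 bases, the 100 sequenced less 13 and 12 clipped. Pairs of ids were to be made by sequence, but no coordinates of ATMG ids were used here, so they were taken from best protein matches and parents recorded in the annotation. Members, lists and splits were chosen with earlier results of these data known. Named ids were the 5 highest and 5 lowest levels in wt control, the 3 largest differences in each direction among ids with at least 50 calls per group, the pairs with values and ids of known genes, and others named in the text were chosen after their values were seen. Alternatives were a minimum of 50 or 100 calls in every group, chloroplast shares matched or subtracted, a test statistic scaled to its spread over all features, the mean or median over ids, protein-coding ids, another call denominator and, added after seeing the data, omission of ids that overlap a longer member. Python 3.11.15, numpy 2.4.6, pandas 2.3.3, scipy 1.17.1 and matplotlib 3.10.9 were used.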

Additional observations from a re-analysis of the deposited data

Results flagged for a closer look

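The heat effect on CG methylation differed between genotypes by a test of the difference itself. Between ddm1 and wt it differed for 21 of 52 insertion ids, all 21 with a smaller fall or no fall in ddm1, and for 25 of 68 mitochondrial ids, where 3.34% of all features passed. In ddm1 control the insertion level was only 0.714% and the mitochondrial level 0.421%, against 18.7% and 6.84% in wt control. A fall as large as in wt was thus not possible in ddm1, and the test cannot tell a different heat effect from this floor. Between poliv and wt it differed for 3 insertion ids and for 2 mitochondrial ids, where 1.62% of all features passed. With the test scaled to the spread over all features, 13 and 13 ids passed for ddm1 and 0 and 0 for poliv. For AT2G07732 the heat effect in poliv minus that in wt was -20.6 points (SE 6.07), and for AT2G07779 it was 15.6 points (SE 3.57), both past the threshold after Benjamini-Hochberg adjustment over 44873 features and neither past it with the scaled test. The error covers counting of calls and not plants.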

How the results depend on the processing

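No paired analysis was possible because each deposited column sums the libraries of a group and carries no replicate number, and for the same reason no replicate could be left out. When the test statistic was scaled to its spread over all features (variance factors 11.5 and 13.4 for ddm1 against wt in control and heat plants, which include real differences, and 2.12 to 2.67 for the other comparisons), fewer ids passed. Lower insertion ids then numbered 34 in place of 51 for ddm1 against wt in control plants, 31 in place of 49 for ddm1 against wt in heat plants, 1 in place of 12 for poliv in control plants, 1 in place of 9 for poliv in heat plants, 9 in place of 20 for heat in wt and 9 in place of 22 for heat in poliv. Lower mitochondrial ids numbered 29 in place of 54 and 19 in place of 49 for ddm1 in control and heat plants, 2 in place of 8 and 5 in place of 16 for poliv, 9 in place of 25 for heat in wt and 14 in place of 28 for heat in poliv. A different heat effect in ddm1 was then found for 13 insertion ids and 13 mitochondrial ids, and in poliv for 0 and 0. The share of all features that passed the scaled test is not given for any of these counts. With chloroplast shares matched, 1 mitochondrial id was lower after heat in ddm1 in place of 0. The other alternatives kept these counts within 1.5 times. Named ids were followed only for ddm1 against wt in control plants and for heat against control in wt. In these comparisons no difference of a named id that passed the test changed sign.

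After subtraction of the chloroplast share the mitochondrial level was -0.109% in ddm1 heat and 0.0415% in ddm1 control, and the insertion level was 0.199% in ddm1 heat and 0.334% in ddm1 control, so that for both sets the difference between ddm1 heat and ddm1 control, positive as measured, turned negative. Mitochondrial calls in ddm1 heat were 1.07 times those in wt heat per call on nuclear protein-coding genes and 0.997 times per call on all nuclear features. The choice of protein-coding ids was not run for mitochondrial ids, whose kinds were not annotated in the tables used. Depth limits single ids most where methylation was highest, since those had the fewest calls.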

Other observations

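The 54 table ids that lie inside the stretch under numbers outside the range were not members, and 29 of them had CG values in every group. Their summed CG level was 0.959% in ddm1 heat and 0.766% in ddm1 control, 8.27% in poliv heat and 14.3% in poliv control, and 9.96% in wt heat and 16.2% in wt control. Among these 29 ids 10 had a different heat effect in ddm1 than in wt (3.34% of all features), with the same limit from the low level in ddm1 control. In poliv 1 had a different heat effect, a share of 3.45% against 1.62% of all features.

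The 14 insertion ids with more CG calls per cytosine than the median nuclear gene in wt control had 0.655% in ddm1 control against 15.7% in wt control, and the 38 ids with fewer had 0.769% against 21.6%. After heat the deeper ids had 8.01% in poliv heat against 12.5% in poliv control and 8.75% in wt heat against 15.7% in wt control. The shallower ids had 13.3% in poliv heat against 19.2% in poliv control and 16.1% in wt heat against 21.6% in wt control.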
